A study of Mus musculus with 8 samples.

Results

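The apolipoprotein genes Apoe, Apoc1 and Apoc2 and their neighbours Tomm40, Clptm1 and Bcam on mouse chromosome 7 were examined in AML12 cells that express Zfp125. The platform annotation gave a symbol of these 6 genes to 7 of the 41345 transcript clusters on the array. One of the 7 carried Apoc4 together with Apoc2, and the other 6 were the only cluster of their gene among the 22180 genes tested. AML12 is a mouse hepatocyte line. One group of 4 arrays came from cells stably expressing Zfp125, a zinc finger protein, and the other group of 4 came from cells with the empty vector. G418 selection and growth in control medium were common to both groups, and the labels name no other allele or agent. Levels are deposited values, read as log2 from their range, on which a change of 1 is a 2-fold change. Changes are Zfp125 minus empty vector cells with their standard error, means carry the SD, and n = 4 arrays in each group. The labels do not say whether the arrays of a group are separate cultures, so the p-values cover no more than the spread among these arrays, which may be technical.

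Apolipoproteins are the protein coat of the particles that carry triglyceride and cholesterol in plasma, and hepatocytes make many of them. Apoe is the ligand by which liver receptors take up remnant particles. Apoc2 is the cofactor that lipoprotein lipase needs to hydrolyse triglyceride, and Apoc1 is a small protein of the same particles that slows their clearance. In the RefSeq gene order of the GRCm38.p6 assembly, Apoc2, Apoc4, Apoc1 and Apoe lie side by side, with Clptm1 next to Apoc2 and Tomm40 next to Apoe. Nectin2 and then Bcam follow Tomm40. The table also holds Gm44805, with the synonym Apoc4-apoc2, which spans both Apoc4 and Apoc2. Tomm40 is the channel through which proteins enter mitochondria, Clptm1 is a multispanning membrane protein, and Bcam, the Lutheran glycoprotein, is a laminin receptor of the immunoglobulin superfamily.

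Start-site windows were read from RefSeq for 5 of the 6 genes, and those of 2 genes that fell and 2 neighbours that did not pass the test are shown so that their upstream sequences can be set side by side. Each runs from 250 bases before to 30 bases after an annotated start, 5′ to 3′ on the minus strand of GRCm38.p6, and the Apoc2 window is given as the 172 bases outside Apoc4. Capitals mark every match, on either strand, to 5 motifs. The GC box bound by the Sp1 family was searched as GGGCGG and the CCAAT box as CCAAT. The core of the TATA box was searched as TATAAA. The half-site of many nuclear receptors was searched as AGGTCA, and the forkhead core as GTAAACA. Apoe has 3 windows. Window 1 is shown whole, and 21 bases of window 3 around its match.
Apoe, window 1, chr7:19699159-19699438: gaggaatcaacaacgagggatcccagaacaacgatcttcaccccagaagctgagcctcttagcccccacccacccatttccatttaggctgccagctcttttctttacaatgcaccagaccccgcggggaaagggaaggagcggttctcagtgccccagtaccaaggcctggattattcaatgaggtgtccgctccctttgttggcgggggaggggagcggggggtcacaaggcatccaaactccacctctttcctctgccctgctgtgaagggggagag
Apoe, window 3, chr7:19698390-19698410: aggggagGTAAACAgaccttt
Apoc2, chr7:19677912-19678083: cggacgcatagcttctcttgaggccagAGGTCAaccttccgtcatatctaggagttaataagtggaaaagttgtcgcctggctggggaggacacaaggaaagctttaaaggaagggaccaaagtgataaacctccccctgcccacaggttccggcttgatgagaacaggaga
Tomm40, chr7:19715400-19715679: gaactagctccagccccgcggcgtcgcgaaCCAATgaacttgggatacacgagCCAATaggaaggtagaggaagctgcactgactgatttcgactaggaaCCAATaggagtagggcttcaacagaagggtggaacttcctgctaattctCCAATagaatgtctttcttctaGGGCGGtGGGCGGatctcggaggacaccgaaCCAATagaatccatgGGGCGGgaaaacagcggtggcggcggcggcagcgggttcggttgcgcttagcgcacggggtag
Clptm1, chr7:19665001-19665280: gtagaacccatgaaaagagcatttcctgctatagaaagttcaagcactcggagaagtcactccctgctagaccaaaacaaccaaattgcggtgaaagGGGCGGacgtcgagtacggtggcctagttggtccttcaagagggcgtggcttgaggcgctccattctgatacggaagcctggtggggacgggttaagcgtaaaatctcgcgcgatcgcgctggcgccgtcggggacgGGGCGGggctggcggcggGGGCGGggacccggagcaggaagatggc
Window 1 of Apoe held no match. Window 2, which overlaps window 3, held 2 overlapping matches to the TATA core, and window 3 held 1 forkhead core that ran across its start. The Apoc2 window held 1 nuclear receptor half-site. Tomm40 had 5 CCAAT boxes and 3 GC boxes, Clptm1 had 3 GC boxes and the Bcam window had 1. Over 32851 windows of the same length in the RefSeq table, 34.7% held a GC box, 36.1% a CCAAT box, 13.1% a TATA core, 15.3% the half-site and 3.49% the forkhead core. At least 3 GC boxes occurred in 10.0% and at least 5 CCAAT boxes in 0.259% of windows. The 30 bases after the start were added to the search after the sequences had been seen. In the 250 bases before the start alone, no Apoe window held the forkhead core, Clptm1 had 2 GC boxes and Bcam had 0. These matches describe letters and were not tested as binding sites.

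The 3 lipoprotein genes fell in Zfp125 cells and none of the 3 neighbours passed the test. Called lower were 3 of 6 genes at an adjusted p under 0.05 (limma with Benjamini-Hochberg adjustment over 22180 genes), beside 0.636% of all genes called lower, and 0 of 6 were called higher, beside 0.446% of all genes. Over all genes and both directions 1.08% were called. The groups did not overlap for the same 3 of 6 genes, beside 7.29% of all genes without overlap in either direction and 3.58% with all Zfp125 arrays lower. In these bulk samples, fewer cells with a transcript and less of it per cell cannot be told apart.

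Apoc1 had the largest change of the 6 genes. Its levels in empty vector cells were 7.99, 8.13, 8.29 and 8.47, and in Zfp125 cells 6.77, 6.71, 6.99 and 6.84. The lowest empty vector array lay 1.00 above the highest Zfp125 array. Its mean fell by 1.39 ± 0.11, from 8.22 ± 0.21 to 6.83 ± 0.12, a 2.63-fold lower level (95% interval of the change -1.64 to -1.15, adjusted p = 4.78e-05). That fall ranked 8 among those of 22180 genes.

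Apoc2, read by its own cluster, came next. Its levels were 8.47, 8.36, 8.74 and 8.76 in empty vector cells and 7.74, 7.55, 7.61 and 7.80 in Zfp125 cells. All 4 Zfp125 arrays were below all empty vector arrays, by at least 0.56. The mean fell by 0.91 ± 0.11, from 8.58 ± 0.20 to 7.68 ± 0.11, which is 1.87-fold (95% interval -1.14 to -0.67, adjusted p = 0.00113). Without variance moderation this call ended (adjusted p = 0.0711).

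The cluster that carries both Apoc4 and Apoc2 did not follow the Apoc2 cluster. Apoc4 is a minor apolipoprotein made in liver. The levels of the shared cluster were 7.26, 7.17, 7.03 and 7.10 in empty vector cells and 7.19, 7.05, 6.91 and 6.96 in Zfp125 cells. These ranges overlap. The change was -0.11 ± 0.10 (95% interval -0.33 to 0.10, limma adjusted p = 0.783 over all 41345 clusters, of which 0.148% were called). Within arrays, the Apoc2 cluster changed by -0.79 relative to the shared one, with SDs of this difference of 0.28 and 0.15 and an exact permutation p of 0.0286, the smallest that 70 assignments of 4 of 8 arrays can give. With the mean of both clusters in place of its own, a setting chosen after seeing the data, the change of Apoc2 shrank to -0.51 ± 0.09 (adjusted p = 0.0137). Which transcripts each cluster reads was not analysed here, and no other cluster of Apoc4 was named.

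Apoe had the smallest fall of the 3. Its levels were 7.45, 7.46, 7.45 and 7.67 in empty vector cells and 6.96, 6.97, 7.02 and 7.03 in Zfp125 cells. Replicate 4 of the empty vector cells stood above the other 3, and all Zfp125 arrays were at least 0.41 below the lowest empty vector array. The mean fell by 0.51 ± 0.09, from 7.51 ± 0.11 to 7.00 ± 0.04, a 1.42-fold lower level (95% interval -0.70 to -0.32, adjusted p = 0.0137). Without empty vector replicate 4 the change was -0.46 (adjusted p = 0.0443). The call ended without Zfp125 replicate 1 (adjusted p = 0.0531), without variance moderation (adjusted p = 0.0564) and with all clusters tested (adjusted p = 0.0736).

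**Figure D1:**
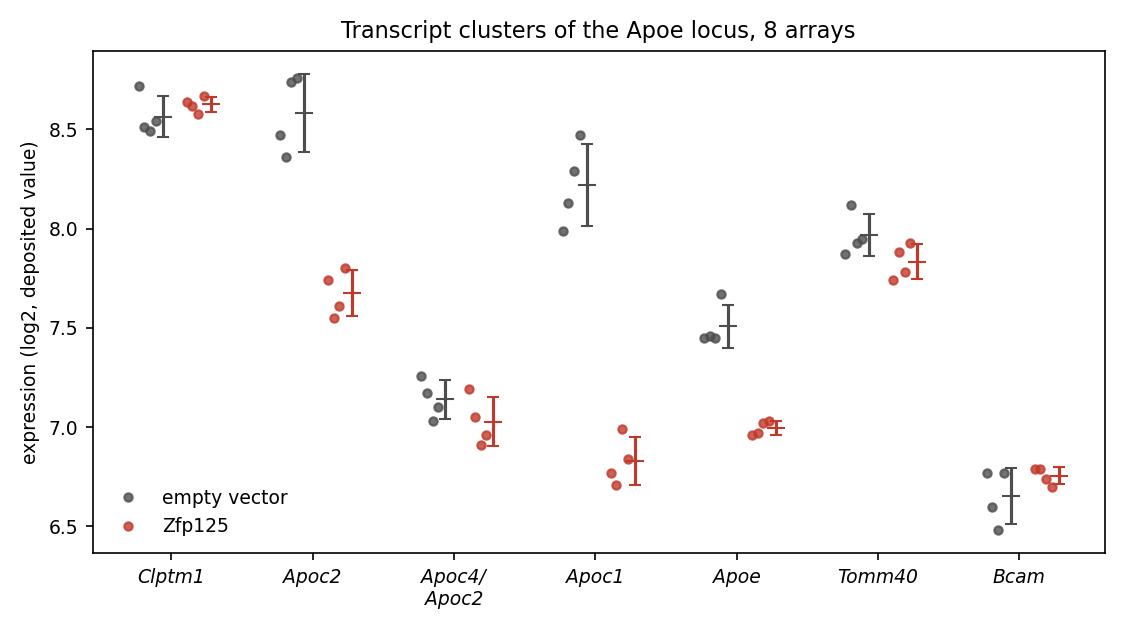
Deposited log2 values (y axis) of the 7 transcript clusters, in their order along the chromosome, on 4 empty vector (grey) and 4 Zfp125 (red) arrays; bars give the mean ± SD. The groups are apart for Apoc2, Apoc1 and Apoe and overlap for Clptm1, the shared Apoc4 and Apoc2 cluster, Tomm40 and Bcam.

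Of the neighbours, Tomm40, the gene next to Apoe, had levels of 7.87, 8.12, 7.93 and 7.95 in empty vector cells and 7.74, 7.88, 7.78 and 7.93 in Zfp125 cells. The ranges overlap, and the change was -0.13 ± 0.09 (95% interval -0.33 to 0.07, adjusted p = 0.656). Clptm1, the gene next to Apoc2, had levels of 8.72, 8.51, 8.49 and 8.54 against 8.64, 8.62, 8.58 and 8.67 in Zfp125 cells. Here the 4 Zfp125 arrays lay inside the range of the empty vector arrays, with a change of 0.06 ± 0.09 (95% interval -0.13 to 0.25, adjusted p = 0.865). Bcam had 6.77, 6.60, 6.48 and 6.77 in empty vector cells and 6.79, 6.79, 6.74 and 6.70 in Zfp125 cells. Its change was 0.10 ± 0.09 (95% interval -0.10 to 0.31, adjusted p = 0.759), with groups that overlap. The lowest bound of these 3 intervals, -0.33, is above the fall of each of the 3 lipoprotein genes, and smaller changes of the neighbours are within the intervals.

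The spread within groups differed between the arms. The SD in empty vector cells was larger than in Zfp125 cells for 6 of 6 genes, and it was larger for 58.0% of all genes. In empty vector cells replicate 4 was the highest array for each of Apoe, Apoc1 and Apoc2, while the highest was replicate 2 for Tomm40 and replicate 1 for Clptm1. For Bcam, replicates 1 and 4 were both at 6.77. Among Zfp125 arrays, replicate 4 was the highest for Apoe, Apoc2, Tomm40 and Clptm1 and replicate 3 for Apoc1. There, replicates 1 and 2 were both at 6.79 for Bcam.

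The next comparison asked whether 2 genes of the locus changed by unequal amounts. For each of the 15 pairs, the within-array difference of the 2 genes was compared between groups by a two-sided exact permutation test, adjusted over the 15 pairs. With Apoc2 read by its own cluster, all 9 pairs of a lipoprotein gene with a neighbour differed (exact p = 0.0286, the smallest possible, adjusted p = 0.0357), and the groups did not overlap in any of them. The pairs share genes, and the adjusted p depends on how many of the 15 reach the smallest p. The pairs are therefore not separate pieces of evidence. The gap in change was smallest for Apoe against Tomm40, at -0.38. For Apoe it was -0.57 against Clptm1 and -0.61 against Bcam. Apoc2 changed by -0.77, -0.97 and -1.01 relative to Tomm40, Clptm1 and Bcam, and Apoc1 by -1.26, -1.45 and -1.49.

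The lipoprotein genes also differed among themselves. Relative to Apoc1, the change of Apoe was 0.88 higher, and relative to Apoc2 it was 0.40 higher. Apoc1 in turn changed by -0.49 relative to Apoc2, and each of these 3 differences had an exact permutation p of 0.0286 (adjusted p = 0.0357). The place of Apoc2 between the others rests on its own cluster. With the mean of both Apoc2 clusters, the setting chosen after seeing the data, Apoe and Apoc2 differed in change by -0.00 (exact permutation p = 0.943), and the change of Apoc2 relative to Tomm40 was -0.38 (exact permutation p = 0.0571, adjusted p = 0.0779). The other 10 pairs that had passed did so there too, each at an adjusted p of 0.0429 (exact permutation test). Between neighbours no pair passed. Tomm40 changed by -0.19 relative to Clptm1 (exact p = 0.114, adjusted p = 0.122) and by -0.24 relative to Bcam (exact p = 0.114, adjusted p = 0.122). Clptm1 changed by -0.04 relative to Bcam (exact p = 0.514).

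**Figure D2:**
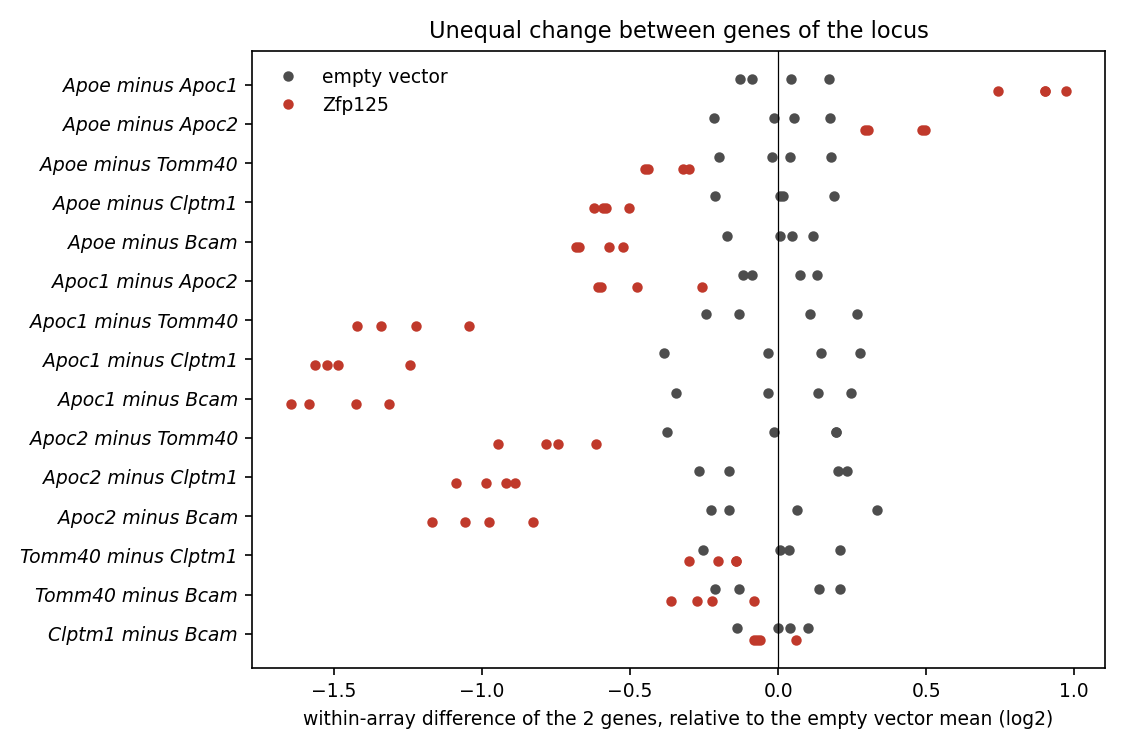
Within-array difference of each of the 15 gene pairs, shifted so that the empty vector mean is 0 (x axis, log2), for 4 empty vector (grey) and 4 Zfp125 (red) arrays. Apoc2 is read by its own cluster. Grey and red points are apart in the 12 pairs that hold at least 1 lipoprotein gene and overlap in the 3 pairs of neighbours.

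Further along the chromosome, the 20 measured genes on each side of the stretch from Apoc2 to Apoe were taken in RefSeq order. Of these 40 genes, which include Tomm40, Clptm1 and Bcam, 0 were called by limma. An unadjusted p under 0.05 was found for 5 of the 40 (12.5%), beside 10.9% of all genes and 10.5% of those on chromosome 7. All 5 of these changes were negative. The share of negative changes among all genes at such a p was not counted, so no shift of the stretch is read from their direction. The 5 changes were those of Bcl3, Trappc6a, Ercc1, Igsf23 with -0.21 ± 0.09 (adjusted p = 0.406) and Ppp1r37 with -0.20 ± 0.09 (adjusted p = 0.448). The changes of the 40 genes ran from -0.28 to 0.22 with a median of -0.04. Over all 1959 measured genes of chromosome 7, 1.48% were called, 23 lower and 6 higher. The median change of all genes was -0.00.

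Of the 40 genes, Bcl3, a nuclear IκB protein, had the largest fall, -0.28 ± 0.09 (adjusted p = 0.223). Trappc6a, a subunit of a vesicle tethering complex, had -0.26 ± 0.08 (adjusted p = 0.233), and Ercc1, a subunit of a DNA repair nuclease, had -0.26 ± 0.10 (adjusted p = 0.348). Nectin2, the adhesion protein between Tomm40 and Bcam, had -0.17 ± 0.10 (adjusted p = 0.583), and Relb, the NF-κB subunit next to Clptm1, had -0.13 ± 0.09 (adjusted p = 0.649). These 5 genes were chosen after their values were seen and are not the 5 largest falls. Gm19345, for 1, had -0.25 ± 0.13 (adjusted p = 0.508). The farthest genes on the Apoe side are Vmn1r genes, which encode vomeronasal receptors and count among the 40. Their levels in empty vector cells ran from 2.05 ± 0.11 for Vmn1r120 to 4.58 ± 0.31 for Vmn1r119. All but Vmn1r119 lay below 4.34, the median of all clusters.

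**Figure D3:**
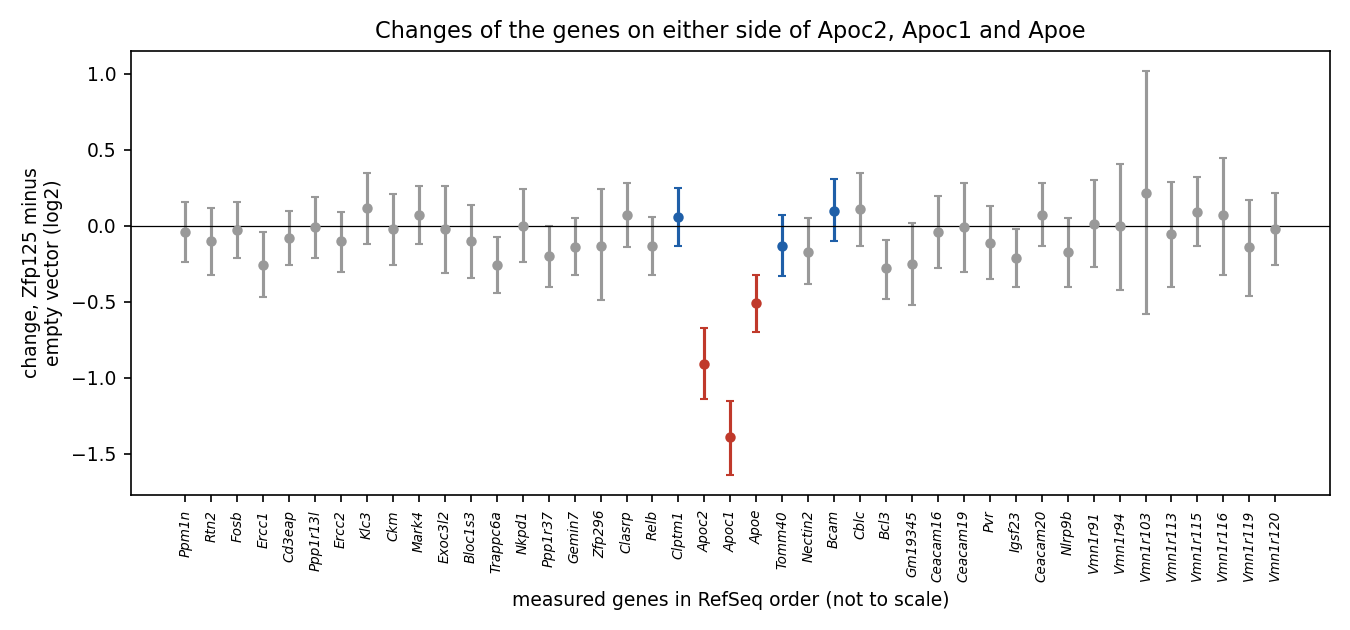
Change in Zfp125 cells with its 95% interval (y axis, log2) for Apoc2, Apoc1 and Apoe (red, called) and the 20 measured genes on each side in RefSeq order (x axis, not to scale), with Clptm1, Tomm40 and Bcam in blue. The 3 red points lie between -1.39 and -0.51, and the other 40 lie between -0.28 and 0.22.

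Genes of the surrounding biology were read from the same limma fit, in lists chosen with earlier results of these data known. The shares to set beside each list are 0.636% of all genes called lower and 0.446% called higher. Among 18 measured other apolipoproteins and serum amyloid proteins, 6 fell and 0 rose (33.3% called), with a median change of -0.12. Apobr, Apoo and Apool, which are in the list by their names, were not called. The 6 were Saa3 with -1.74 ± 0.12, Apoh with -1.04 ± 0.15, Apof with -0.99 ± 0.11, Apon with -0.68 ± 0.10, Apoa1 with -0.61 ± 0.13 and Apoc3 with -0.57 ± 0.09. Saa3 is an acute phase apolipoprotein and Apoc3 inhibits the lipolysis for which Apoc2 is the cofactor. Their adjusted p-values ran from 1.34e-05 to 0.0492, that of Apoa1, whose call ended in 7 of 8 omissions of 1 array (all but Zfp125 replicate 4, adjusted p up to 0.163). Apob, the structural protein of very-low-density lipoprotein, had -0.07 ± 0.09 (adjusted p = 0.844).

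Of the receptors and binding partners of Apoe particles, 0 of 16 measured fell and 1 rose (6.25% called), with a median of -0.03. Sorl1, a sorting receptor of the low-density lipoprotein receptor family, rose by 0.65 ± 0.10, from 4.99 ± 0.11 to 5.64 ± 0.11 (adjusted p = 0.00467). Its relative Sort1 had 0.35 ± 0.09 (adjusted p = 0.09). The remnant receptor Lrp1 had -0.04 ± 0.09, and the heparan sulfate proteoglycan Sdc1 had -0.20 ± 0.09 (adjusted p = 0.428). Of 12 genes of plasma lipolysis and remodelling, 1 fell and 0 rose (8.33% called), with a median of -0.20. It was the cholesterol-esterifying enzyme Lcat, which fell by 0.74 ± 0.11 (adjusted p = 0.0063). Lpl, the lipase that Apoc2 activates, had -0.28 ± 0.10 (adjusted p = 0.257).

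The liver X receptors are sterol-activated factors with Apoe, Apoc1 and Apoc2 among their known targets. Of 17 measured genes of this system, 2 fell and 0 rose (11.8% called), with a median of -0.08. They were the desaturase Scd1 with -0.97 ± 0.15 (adjusted p = 0.00537) and the carbohydrate response factor Mlxipl with -0.59 ± 0.10 (adjusted p = 0.0101). The receptor gene Nr1h3 had -0.09 ± 0.10, and the targets Abca1 and Abcg1, which export cholesterol, had 0.05 ± 0.09 and -0.08 ± 0.10. Srebf1 and Mylip had -0.13 ± 0.10 and 0.09 ± 0.11. The adjusted p-values of these 5 genes were 0.688 or higher.

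Among 27 measured transcription factors that are known regulators of apolipoprotein genes, 0 fell and 1 rose (3.7% called), with a median of -0.09. Foxa1, a forkhead pioneer factor, rose by 0.86 ± 0.11, from 5.72 ± 0.15 to 6.58 ± 0.19 (adjusted p = 0.00179). Hnf4a, a nuclear receptor that drives hepatocyte genes, had -0.38 ± 0.09 (adjusted p = 0.0562). Cebpa and Nr5a2, both liver-enriched activators, had -0.39 ± 0.12 (adjusted p = 0.176) and -0.42 ± 0.10 (adjusted p = 0.0889).

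The relatives of the neighbouring genes were read the same way. Of 13 measured genes of mitochondrial protein import, Tomm40 among them, 0 were called, beside 1.08% of all genes, with a median of -0.10. The smallest p-values were those of the import receptor Tomm20 with -0.17 ± 0.10 (adjusted p = 0.597) and the sorting component Mtx2 with -0.14 ± 0.09 (adjusted p = 0.609). Of 17 laminin and adhesion partners of Bcam, 2 rose and 0 fell (11.8% called), with a median of 0.11. These were the laminin chains Lamc1 with 0.44 ± 0.09 (adjusted p = 0.0318) and Lama5, the ligand chain of Bcam, with 0.42 ± 0.09 (adjusted p = 0.044). Neither call held in any of the 8 fits that left out an array, where the adjusted p reached 0.116 and 0.145.

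**Figure D4:**
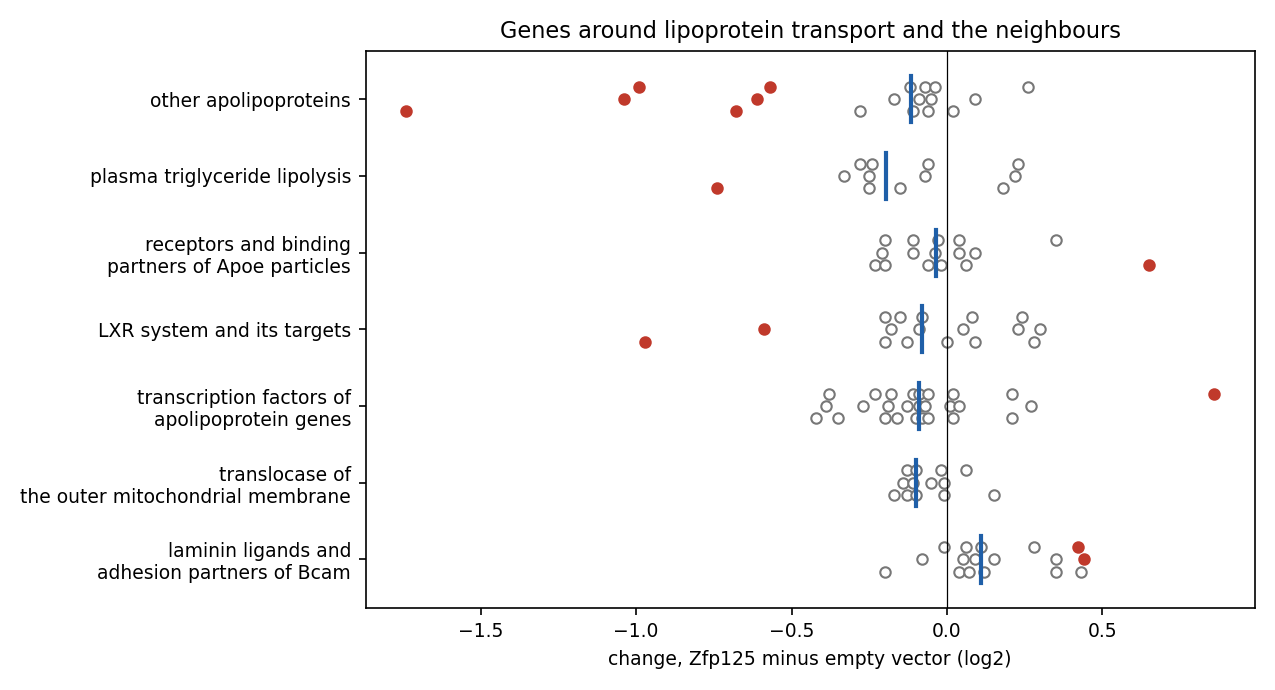
Change in Zfp125 cells (x axis, log2) of each measured gene in 7 lists, with called genes filled in red, other genes open and the list median as a blue line. Called falls stand among apolipoproteins, lipolysis and the liver X receptor list, and called rises among receptors, transcription factors and laminins.

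Profiles over the 8 arrays were compared by the root mean square difference of values centred on each gene's mean, as a description that the group difference dominates. The genes nearest to Apoc1 were Cybb, the phagocyte NADPH oxidase subunit, at 0.13, the glucokinase regulator Gckr at 0.18 and the apolipoprotein Apof at 0.21, where the median gene was at 0.72. Nearest to Apoc2 were the cationic amino acid transporter Slc7a2 at 0.11, the monocarboxylate transporter Slc16a7 at 0.12 and the lipid droplet enzyme Hsd17b13 at 0.12, with the median gene at 0.49. Nearest to Apoe were Cpn1, a carboxypeptidase subunit, at 0.05, the glycerol phosphate dehydrogenase Gpd1 at 0.05 and the stress factor Atf5 at 0.06, with the median gene at 0.30. Their changes lay between -1.36 and -0.44. The 3 genes were not each other's nearest. In nearness to Apoc1, Apoc2 ranked 21 and Apoe 88, and in nearness to Apoc2, Apoe ranked 60 and Apoc1 129. In nearness to Apoe, Apoc2 ranked 2902 and Apoc1 21474, the latter at 0.45 and so farther from it than the median gene. The values were not scaled, so genes that fall together by unequal amounts lie apart. These ranks therefore largely restate the sizes of the falls and do not show profiles of unlike shape.

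The label of the cells was set against markers. The hepatocyte gene Alb stood at 12.96 ± 0.09 in empty vector and 12.48 ± 0.06 in Zfp125 cells, and 16 of 18 measured hepatocyte markers lay above the median of all clusters, 4.34. Asgr1 and Tdo2 lay below that median. In the same direction as the apolipoproteins, 7 of 18 hepatocyte markers fell and 0 rose (38.9% called, beside 0.636% of all genes called lower). Their median change was -0.36. The 7 were Alb, Serpina1c, Ahsg, Tat and the fibrinogen chains Fga, Fgb and Fgg. Markers not called ran from Cps1 with -0.84 ± 0.20 (adjusted p = 0.0656) to Asgr1 with 0.12 ± 0.11 (adjusted p = 0.77). Ttr and Apob, not called either, had 0.08 ± 0.10 and -0.07 ± 0.09. The mean level of the 18 hepatocyte markers was 7.53 to 7.80 on the empty vector arrays and 7.05 to 7.32 on the Zfp125 arrays. Macrophages also make Apoe, and of 18 macrophage markers 0 were called, beside 1.08% of all genes called in either direction. Cd14 had -0.31 ± 0.08 (adjusted p = 0.127). The mean levels of the 18 were 4.25 to 4.42 in empty vector and 4.26 to 4.31 in Zfp125 cells. Of these 18, 8 lay above the median of all clusters, among them Cd14 at 7.62, Cd68 at 5.50, C1qa at 5.41 and Csf1r at 4.83 in empty vector cells, and 10 lay below it, among them Adgre1 at 3.09, Itgam at 3.44 and Vsig4 at 2.64. None of 12 stellate cell and fibroblast, 12 endothelial and 8 cholangiocyte markers was called. In lists this short, 0 calls are close to the 1.08% of all genes called. Among cholangiocyte markers, Tspan8 had -0.40 ± 0.13 (adjusted p = 0.206) and Sox9 had 0.28 ± 0.09 (adjusted p = 0.204). The mean levels of these markers in the 2 groups were, in that order, 4.27 to 4.31 and 4.24 to 4.34, 4.11 to 4.17 and 4.06 to 4.18, and 5.71 to 5.87 and 5.74 to 5.84. Above the median of all clusters were 6 of 12, 6 of 12 and 5 of 8 of them. The cholangiocyte markers ran from 2.73 for Epcam, 3.74 for Muc1 and 4.12 for Cftr, below that median, to 8.15 for Krt19 and 9.75 for Sox9 in empty vector cells. The part of the hepatocyte and macrophage markers in the falls at the locus was not tested.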

How the data were processed

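The deposited values are log2 expression values of 41345 transcript clusters on 8 arrays, made by the authors with Affymetrix Expression Console and Transcriptome Analysis Console, per the submitters' processing notes. The log2 scale was inferred from the range of the values and is not stated in the table; array medians were 4.32 to 4.37. No source used here gives the background correction, normalization or versions, and the deposited log2 values were used without normalizing again. The number of arrays limits the precision. Pearson correlations between arrays were 0.977 to 0.984. No cluster was named Zfp125 in these tables, so the labels were not checked against it.

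Clusters were named through the platform annotation (23521 with 1 symbol, 1814 with several, 16010 unnamed here), with symbols updated by Entrez identifier to GRCm38.p6 RefSeq. The brightest cluster stood for a gene. The test was lmFit and eBayes of limma 3.58.1 (R 4.3.3) over 22180 genes, and adjusted p-values are Benjamini-Hochberg values from limma unless an exact test is named. The fit was tested on simulated data with known changes. The rule for named genes took all 6 genes, called genes among the 20 on each side, called genes of each list or otherwise the 2 smallest p-values, and the 3 nearest profiles. Other list genes were named after their values were seen. The genes, lists and sequence motifs were chosen with earlier results of these data known. Figures were drawn with matplotlib 3.10.9.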

Additional observations from a re-analysis of the deposited data

Results flagged for a closer look

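The Apoe level on replicate 4 of the empty vector cells, 7.67, stood apart from the other 3 arrays of its group by a gap test, which had 14 groups of 4 to test among the 7 clusters and singled out 1. Chance singles out about 1 in 20 such groups. Without that array the fall of Apoe was -0.46 (limma adjusted p = 0.0443).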

How the results depend on the processing

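Of 109 recomputed changes of the 6 genes under other settings, 105 kept their direction and their side of the threshold, 4 kept only their direction and 0 changed sign. Apoc1 passed in all 18 settings. Apoe did not pass with all clusters tested (-0.51, adjusted p = 0.0736) and without moderation (-0.51, adjusted p = 0.0564), nor did Apoc2 without moderation (-0.91, adjusted p = 0.0711), where 1 of the 6 genes was called. With 1 array left out, Apoe ranged from -0.53 to -0.46 (adjusted p 0.0309 to 0.0531), Apoc1 from -1.47 to -1.31, Apoc2 from -0.98 to -0.85, and 2 to 3 genes were called. Of 15 pairs, 9 to 13 passed on such omissions, fewest without Zfp125 replicate 2 or 3, and 10 passed with the mean of both Apoc2 clusters. The 13 without empty vector replicate 1 exceed the 12 pairs that hold a lipoprotein gene, so at least 1 pair of neighbours passed there. No gene among the 40 around the locus was called in any of 13 settings. Of the related lists, 13 genes were called, against 2 without moderation and 5 with all clusters tested. The 2 were Saa3 and Apoc3, and the 5 were Saa3, Apoc3, Apof, Foxa1 and Sorl1. The calls of Scd1, Mlxipl, Lcat, Apoh and Apon ended in both settings. Replicate numbers did not pair the arrays: deviations of same-numbered arrays correlated at -0.0526, -0.0528, 0.0365 and -0.0091. With the replicate block, Apoe, Apoc1 and Apoc2 had adjusted p-values of 0.0411, 1.07e-04 and 0.00153. The block was not run for gene pairs, where 4 pairs of arrays could not reach the threshold. With 4 arrays in each group, a miss does not show that a gene did not change.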
